A study of Mus musculus with 8 samples.

Results

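The 9 genes described here make, carry, sense and clear retinoic acid: Aldh1a1, Aldh1a2, Aldh1a3, Crabp1, Crabp2, Rbp4, Rarb, Stra6 and Cyp26b1. They were listed by name, and the array held 11 probe sets that its annotation ties to one of these symbols and no other, of 18193 genes measured in all. Aldh1a3 had 3 probe sets and each of the others had 1; where a gene had several, the one with the highest mean log2 signal stood for it. The samples were optic nerves of C57BL/6 mice aged 35 to 45 days, kept as organotypic cultures for 3 days with saline (control, 4 samples) or with 20 mM lithium chloride (lithium, 4 samples), with 6 nerves in each sample. The methods name the strain C57/BL10 instead, and the series text and methods count 6 mice per group, so how nerves of these mice were divided over the samples is not clear. Neither source states whether replicates were separate animals or cultures, so p-values measure the spread between these samples only, which may be technical. All samples shared a medium with horse serum, and nerves were cleaned of the arachnoid membrane and removed with the retina intact.

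Retinoic acid is a small lipid hormone made from vitamin A. Retinol travels in blood on the carrier Rbp4 and can enter cells through the membrane receptor Stra6. Retinol dehydrogenases such as Rdh10 turn it into retinaldehyde, and the retinaldehyde dehydrogenases Aldh1a1, Aldh1a2 and Aldh1a3 complete the synthesis. Inside cells Crabp1 and Crabp2 bind retinoic acid, Crabp2 hands it to nuclear receptors such as Rarb, and Cyp26b1 breaks it down. Around the brain and optic nerve, fibroblasts of the meninges are a known source of Aldh1a2, and the pigment epithelium of the retina is a known site of Stra6.

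Rarb is itself a classic retinoic acid target, because its promoter carries a retinoic acid response element of the DR5 type, in which receptor half-sites are repeated in the same direction 5 bases apart. That promoter is shown because Rarb serves as a response gene below; the capitals mark the DR5 element, which began 53 bases before the transcript start. It lies at chr14:16575477-16575726 on the minus strand of GRCm38.p6 (RefSeq).
Rarb: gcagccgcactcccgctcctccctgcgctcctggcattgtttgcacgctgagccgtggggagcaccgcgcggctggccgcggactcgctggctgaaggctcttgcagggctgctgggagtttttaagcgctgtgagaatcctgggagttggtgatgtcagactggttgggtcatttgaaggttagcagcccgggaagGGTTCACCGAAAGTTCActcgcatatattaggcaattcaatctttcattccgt
The promoter stretch of Cyp26b1, the clearance enzyme, is shown beside it at chr6:84593909-84594060 on the minus strand, up to the outermost annotated start. The capitals mark a TATAAA box that began 41 bases before that start.
Cyp26b1: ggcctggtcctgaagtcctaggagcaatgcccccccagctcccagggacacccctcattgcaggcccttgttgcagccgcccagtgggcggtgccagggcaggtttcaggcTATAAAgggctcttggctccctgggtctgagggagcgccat
Further stretches belong to genes that were low in lithium, Aldh1a2 at chr9:71215539-71215788 and Crabp1 at chr9:54764498-54764747, both on the plus strand. The capitals mark the motif GGGCGG on either strand (CCGCCC on the other one), of which Crabp1 held 5 and Aldh1a2 none.
Aldh1a2: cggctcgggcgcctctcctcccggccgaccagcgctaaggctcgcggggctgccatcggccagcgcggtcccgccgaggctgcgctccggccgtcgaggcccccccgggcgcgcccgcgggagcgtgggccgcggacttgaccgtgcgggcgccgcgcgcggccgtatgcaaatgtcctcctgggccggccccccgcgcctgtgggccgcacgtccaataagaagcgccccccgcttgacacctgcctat
Crabp1: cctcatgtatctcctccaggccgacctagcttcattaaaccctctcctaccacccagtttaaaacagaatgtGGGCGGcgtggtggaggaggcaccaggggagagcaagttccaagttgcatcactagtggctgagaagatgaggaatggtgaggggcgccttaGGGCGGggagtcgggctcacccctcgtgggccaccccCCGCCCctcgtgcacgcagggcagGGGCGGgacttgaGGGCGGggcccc
Of the 9 genes, 7 had promoter windows in the RefSeq table (12 windows, each from 250 bases before to 50 after a start). A DR5 element on either strand was found in 1 of the 12, that of Rarb, and in 0.0974% of all 32851 promoter windows. TATAAA was present in 13.6% and GGGCGG in 35.7% of all windows. Such a match describes the sequence and is no evidence of binding in these nerves.

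The signals were those of an optic nerve. Mbp and Mobp of myelin had means of 2345 and 2295 in controls, and Gfap and Gja1 of astrocytes had means of 1593 and 1485. Of 16 measured markers of retina and pigment epithelium, 5 were below background on all 8 arrays (Pde6a, Pde6b, Crx, Nrl and Rpe65), while Sag of photoreceptors read 11.1 to 22.3, Best1 of pigment epithelium 25.3 to 39.5 and Rlbp1, which glia also express, 85.1 to 302. The median signal per array was 12.3 to 17.5, and precision is limited by having 8 arrays. Values are MAS5 signals on a linear scale, and ± is the SD over 4 arrays. Fold changes are differences of mean log2 signals, lithium minus control, fitted with limma over 45037 probe sets, and a gene passed at a Benjamini-Hochberg adjusted p under 0.05. The brightest of 27 probe sets for bacterial transcripts, which mark the background, read 2.13 to 5.64 per array. Fewer cells of a type and less RNA per cell cannot be told apart in whole nerves.

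None of the 9 genes passed the adjusted p (0 lower, 0 higher), against 2.05% lower and 1.18% higher among all 18193 genes. At an unadjusted p under 0.05, limma placed 5 of the 9 lower (Aldh1a2, Aldh1a3, Crabp1, Crabp2 and Rbp4) and 0 higher, against 12.6% lower among all genes. In 4 of the 9 (Aldh1a2, Aldh1a3, Crabp1 and Crabp2) every lithium array lay below every control array, against 8.91% of all genes. The median log2 fold change of the 9 was -0.92, with 7 means lower and 2 higher, and that of all genes was -0.00. Counts over the 9 describe these genes and are no test of them as a group.

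**Figure D1:**
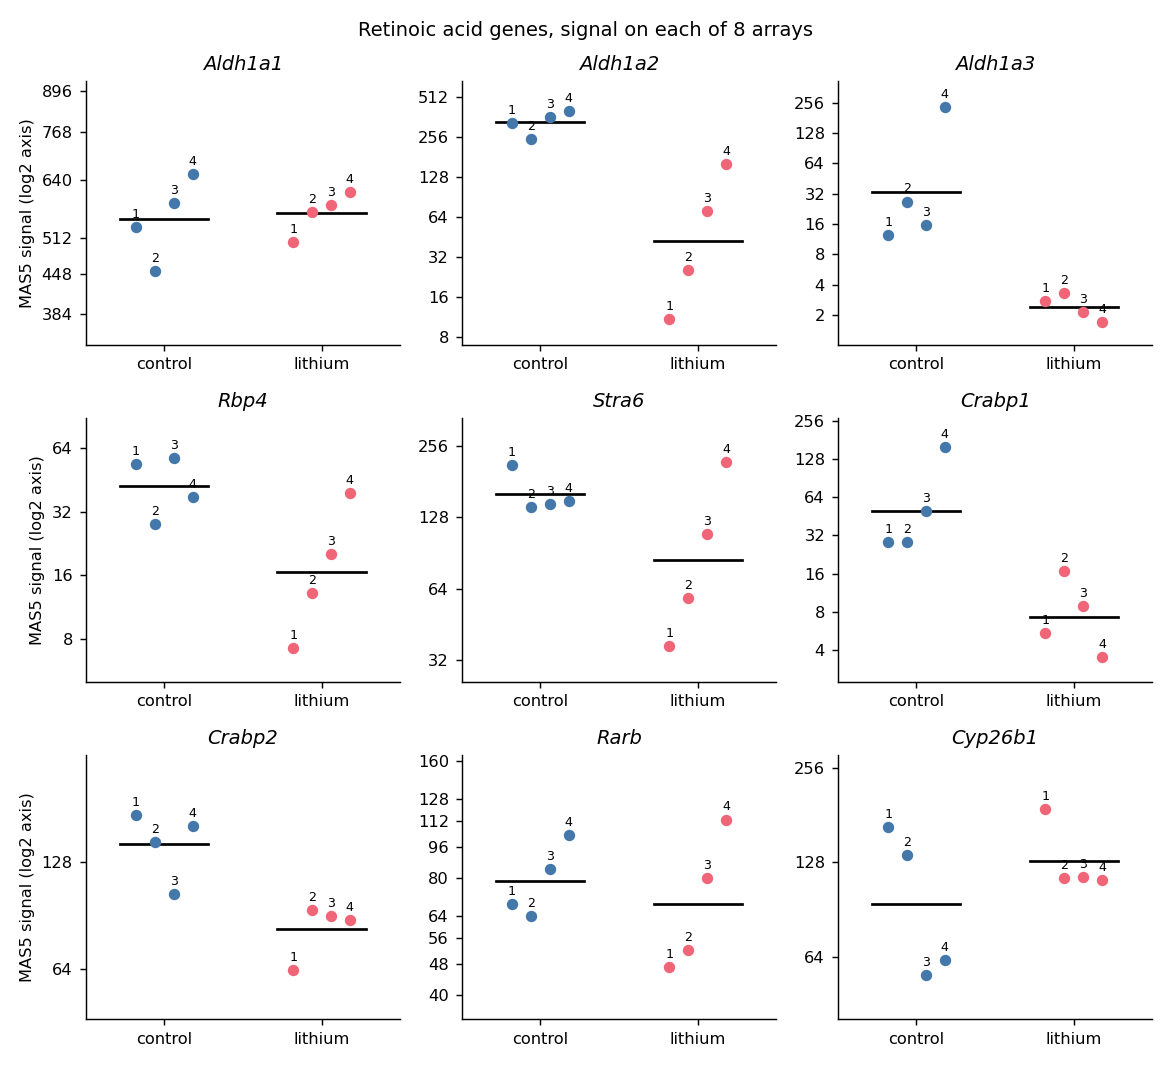
MAS5 signal (log2 axis) of the main probe set of each of the 9 genes on 4 control and 4 lithium arrays; points carry the replicate number and bars are the means of the log2 signals. Aldh1a2, Aldh1a3, Crabp1 and Crabp2 show no overlap between the groups, whereas Stra6 spans 36.8 to 219 within the lithium arrays.

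Of the 3 synthesis enzymes, Aldh1a1 was level between the groups and the other 2 were low in lithium. Aldh1a2, the main retinaldehyde dehydrogenase of embryonic tissue and of meningeal fibroblasts, had signals of 327, 247, 362 and 403 on control arrays 1 to 4. On lithium arrays 1 to 4 it read 10.9, 25.5, 70.8 and 160. The groups did not overlap, and the lithium arrays differed among themselves by about as much as the controls on the linear scale but by far more as a ratio. The means were 335 ± 66.1 and 66.7 ± 67.0, the log2 fold change was -2.97 (standard error 0.80, 95% interval -4.86 to -1.07), 7.83-fold lower, and the adjusted p was 0.113 from limma. It was -4.09 within arrays 1 and 2 and -1.84 within arrays 3 and 4. Without lithium array 1 it was -2.32 and without lithium array 4 it was -3.61, and the adjusted p ran from 0.0595 to 0.231 over the 8 fits that each omitted an array. With a term for arrays 1 and 2 against 3 and 4, a division that no label gives, the adjusted p from limma was 0.0440. The call on Aldh1a2 thus depended on the fit. Its adjusted p was 0.0271 when only probe sets with a mean signal of 200 in either group were tested. Aldh1a2 met that level through its control mean alone, so this last value is no support for the fall.

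Aldh1a1, a cytosolic retinaldehyde dehydrogenase, read 535, 453, 586 and 654 on the control arrays and 506, 566, 582 and 610 on the lithium arrays. The lithium values all fell within the control range. Its log2 fold change was 0.03, with a 95% interval of -0.26 to 0.33 (adjusted p = 0.949 from limma). The interval of Aldh1a1 thus held both directions, whereas that of Aldh1a2 held only lower values.

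Aldh1a3, the third enzyme of the family, had signals of 12.4, 26.7, 15.6 and 234 on the control arrays. The lithium signals were 2.76, 3.30, 2.16 and 1.69, each below the brightest bacterial probe set of its own array. The main probe set was thus not above background in lithium. With those bacterial signals taken as the limit of detection, it was at least 8.48-fold lower there (control mean of log2 signals against their mean). That limit is a low one. The signals on control arrays 1 and 3 were themselves below the median signals of these arrays (14.8 and 17.5), and detection calls were not used. Control array 4 stood far above the other 3, and without it the limit was at least 4.42-fold. The adjusted p from limma was 0.0918 with all arrays and 0.0459 without control array 4, fitted on lithium values that have only an upper bound. The other probe sets of Aldh1a3 were dim. One read 3.42 to 17.5 in controls and 0.332 to 3.24 in lithium (at least 1.64-fold lower, or 1.17-fold without control array 4, adjusted p = 0.187). The other read 4.56 to 19.6 in controls and 6.19 to 8.15 in lithium with overlapping groups (log2 fold change -0.41, adjusted p = 0.681 from limma). It was above the brightest bacterial probe set on every array. On both of these probe sets, too, control array 4 was the highest.

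**Figure D2:**
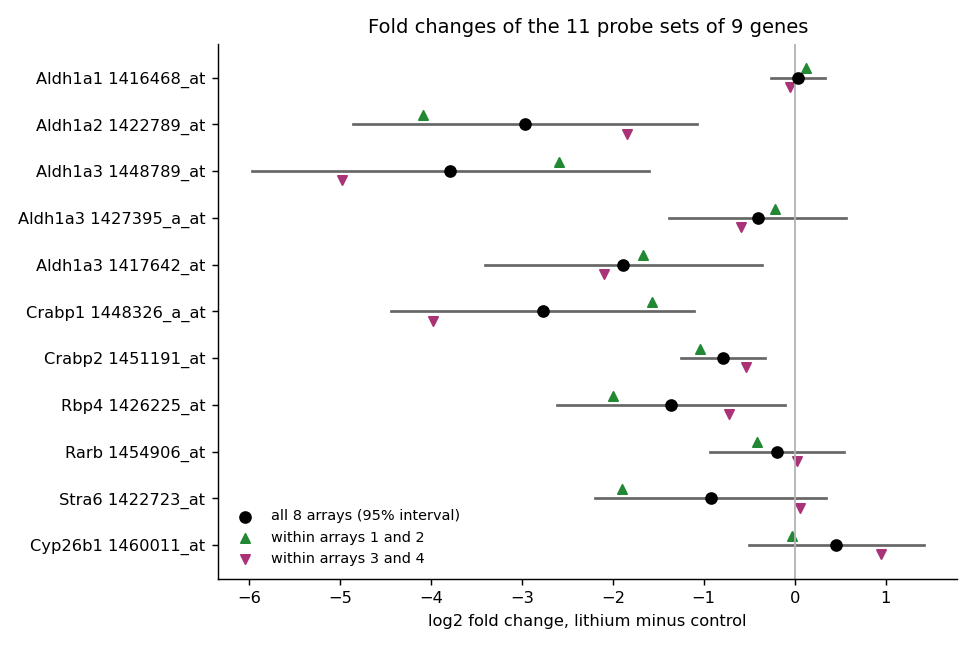
Log2 fold change, lithium minus control, of the 11 probe sets of the 9 genes (circles, with 95% intervals from limma), with the values within arrays 1 and 2 and within arrays 3 and 4 as triangles. The intervals are not adjusted for the number of probe sets tested. The intervals of Aldh1a2, Crabp1, Crabp2, Rbp4 and 2 of 3 Aldh1a3 probe sets lie below 0, and Stra6 was -1.90 within arrays 1 and 2 but 0.06 within arrays 3 and 4, and the points of these 2 Aldh1a3 probe sets rest on lithium signals below background.

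The cytosolic binding proteins were both lower in each lithium array than in any control array. Crabp1 read 28.6, 28.3, 49.5 and 158 on the control arrays and 5.46, 16.9, 8.85 and 3.54 on the lithium arrays. Control array 4 was again the highest, as for Aldh1a3, and lithium array 4, the lowest, was below its own bacterial background signal. The log2 fold change of Crabp1 was -2.77 (standard error 0.71, 95% interval -4.45 to -1.10, adjusted p = 0.0997 from limma). Arrays 1 and 2 alone gave -1.57 for Crabp1, and arrays 3 and 4 alone gave -3.98.

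Crabp2, which delivers retinoic acid to its receptors, had signals of 172, 145, 104 and 161 in controls. In lithium it read 63.6, 93.5, 90.2 and 88.1, so that the groups were close but separate. The log2 fold change was -0.79 (standard error 0.20, 95% interval -1.25 to -0.32), 1.72-fold lower, with an adjusted p of 0.0961 from limma. The fold of Crabp2 was the smallest of the 4 genes without overlap, and its spread was the tightest of them. It was -1.04 within arrays 1 and 2 and -0.54 within arrays 3 and 4.

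The genes of retinol carriage and uptake were low on some lithium arrays and not on others. Rbp4, the plasma retinol carrier, read 53.9, 27.96, 57.3 and 37.7 in controls and 7.20, 13.2, 20.2 and 39.3 in lithium. Lithium arrays 1 to 3 lay below all controls, and lithium array 4 lay within their range. Lithium minus control gave -1.36 on the log2 scale (95% interval -2.62 to -0.10, adjusted p = 0.243 from limma).

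Stra6, the membrane receptor for Rbp4, read 213, 142, 146 and 150 in controls and 36.8, 58.6, 108 and 219 in lithium. The highest value of all 8 arrays was lithium array 4 and the lowest was lithium array 1. The log2 fold change of -0.92 had a 95% interval of -2.19 to 0.35 (adjusted p = 0.442 from limma). Without lithium array 4 it was -1.38 with an adjusted p of 0.140, and without lithium array 1 it was -0.52.

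The response gene and the clearance enzyme did not separate the groups. Rarb, the receptor whose promoter holds the DR5 element printed above, read 68.4, 63.8, 84.3 and 103 in controls and 47.2, 52.2, 80.2 and 113 in lithium. Lithium arrays 1 and 2 were the lowest of the 8 and lithium array 4 was the highest. The log2 fold change was -0.19, with a 95% interval of -0.93 to 0.54 (adjusted p = 0.818 from limma). Cyp26b1 read 166, 135, 55.9 and 62.2 in controls and 189, 114, 115 and 112 in lithium. In controls arrays 1 and 2 were the higher pair, and in lithium array 1 stood above the other 3. Its log2 fold change was 0.46 (95% interval -0.50 to 1.42, adjusted p = 0.649 from limma). Arrays 1 and 2 alone gave -0.03 for Cyp26b1 and arrays 3 and 4 alone gave 0.95.

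The lithium arrays took a shared order for several of the 9 genes. For Aldh1a1, Aldh1a2, Rbp4, Rarb and Stra6, 5 of 9, lithium array 1 was the lowest and lithium array 4 the highest of the lithium arrays, against 13.2% of all genes. The same held for 11 of 20 markers of leptomeningeal and perivascular fibroblasts, among them Foxd1, a transcription factor of the meninges, at 5.83, 13.1, 21.1 and 41.1 on lithium arrays 1 to 4. This count was made after the values were seen and is a description, and the replicates carry no order of their own. Lithium array 1 also had the lowest median signal of all arrays (12.3, against 15.2 to 16.5 on the other lithium arrays). Its share of values at the floor was the largest (16.6%). What this adds to the shared order was not tested.

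**Figure D3:**
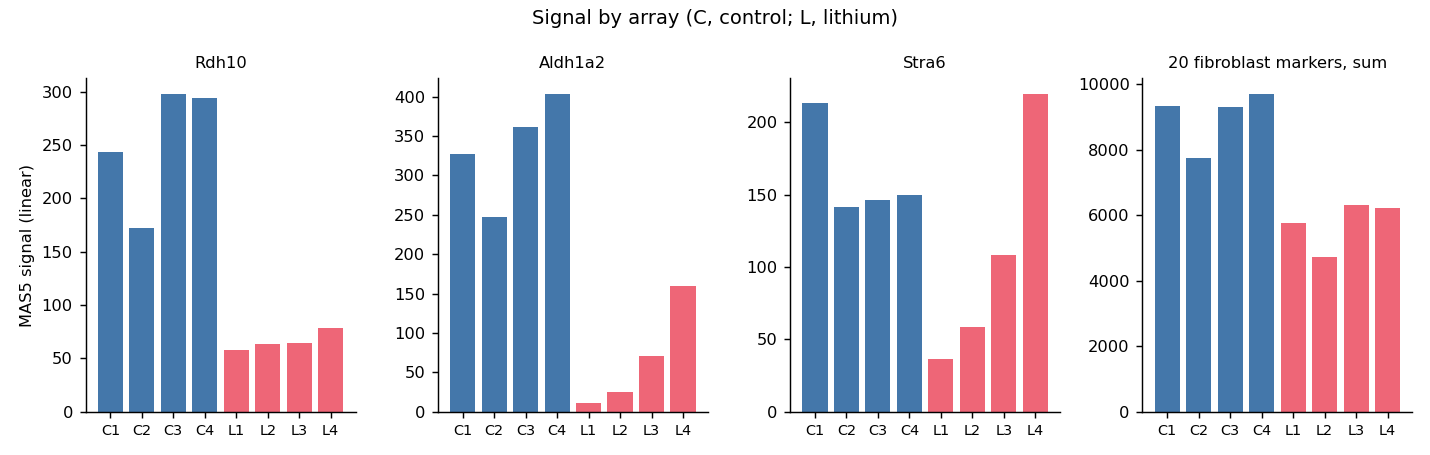
MAS5 signal (linear axis from 0) of Rdh10, Aldh1a2 and Stra6, and the summed signal of 20 fibroblast markers, on control arrays 1 to 4 (C1 to C4) and lithium arrays 1 to 4 (L1 to L4). Rdh10 was at 58.4 to 78.4 on all lithium arrays, Aldh1a2 at 10.9 to 160 and Stra6 at 36.8 to 219.

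Of 67 other retinoid genes that the array measured, 3 fell in lithium (Rdh10, Gprc5a and Rai14), 0 rose and 64 did not pass, against 2.05% lower and 1.18% higher among all genes, with a median log2 fold change of -0.03. Rdh10, the dehydrogenase that makes retinaldehyde, the substrate of the Aldh1a enzymes, read 244, 173, 298 and 294 in controls. In lithium it read 58.4, 63.4, 64.3 and 78.4, well apart from the controls and alike among themselves. It fell by 1.91 on the log2 scale (standard error 0.19), 3.75-fold, with an adjusted p of 0.0140 from limma, and on its second probe set the log2 difference was -1.34 (adjusted p = 0.0773), likewise with no overlap between the groups. The change was -1.75 within arrays 1 and 2 and -2.06 within arrays 3 and 4. Whichever of the 8 arrays was left out, Rdh10 still passed (adjusted p 0.0166 to 0.0463), but a block for the replicate number brought the adjusted p of Rdh10 to 0.0550.

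In the metabolism list 24 of 27 genes were measured, of which Rdh10 fell, 0 rose and 23 did not pass (median -0.01). The groups did not overlap in 3 of the 24, 2 lower and 1 higher, against 8.91% lower and 6.42% higher among all genes. Besides Rdh10 these were Dhrs3, which reduces retinaldehyde back to retinol and is induced by retinoic acid, and Aldh8a1, a dehydrogenase of 9-cis-retinal, named after their values were seen. Dhrs3 read 427, 272, 382 and 493 in controls and 129, 148, 183 and 250 in lithium (a log2 difference of -1.16, adjusted p = 0.0768 from limma). Aldh8a1 was dim, at 3.33, 5.49, 3.24 and 2.85 in controls, and it read 5.91, 19.4, 12.6 and 11.96 in lithium (a log2 difference of 1.67, adjusted p = 0.0807). Cyp26a1, the other well-known clearance enzyme, was dim, at 0.390 to 2.35 in controls and 1.49 to 4.37 in lithium (adjusted p = 0.331).

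Carriers and uptake proteins (8 of 10 measured) held no gene that passed, and their median log2 fold change was 0.55. Fabp5, which can also carry retinoic acid, had a mean of 1645 ± 99.3 in controls and 1574 ± 137 in lithium, and Rlbp1, a retinaldehyde binding protein, one of 131 ± 52.4 and 219 ± 96.2. Nuclear receptors and their coregulators (14 of 16 measured) held none either, with a median of -0.14. The coactivators Ncoa3 and Ncoa1 had log2 fold changes of 0.29 (adjusted p = 0.499 from limma) and 0.25 (adjusted p = 0.131). At an unadjusted p under 0.05, limma gave 1 of the 8 carriers (0 lower) and 7 of the 14 receptors and coregulators (4 lower), against 22% of all genes in either direction and 12.6% lower. The groups did not overlap for Rbp7 (higher, adjusted p = 0.0602 from limma), Nr2f2 (lower, 0.0638) and Ncoa1 (higher). These were 1 of the 8 and 2 of the 14, against 8.91% lower and 6.42% higher among all genes. Rbp7 was dim, at 3.88 to 9.93 in controls and 12.4 to 18.9 in lithium.

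Among 21 of 23 listed retinoic acid responsive genes, Gprc5a and Rai14 fell, 0 rose and 19 did not pass, with a median of -0.15. Gprc5a, an orphan receptor that retinoic acid can induce, read 92.8, 106, 105 and 153 in controls and 37.1, 61.4, 49.8 and 54.9 in lithium (a log2 difference of -1.17, adjusted p = 0.0434 from limma). Rai14, an actin-binding protein, read 403, 353, 386 and 394 in controls and 219, 282, 215 and 222 in lithium (a log2 difference of -0.72, adjusted p = 0.0268). Both genes were separate between the groups, and so was Rarres1, named after its values were seen. Rarres1 read 13.02 to 29.96 in controls and 4.21 to 9.72 in lithium (a log2 difference of -1.42, adjusted p = 0.0955 from limma). The groups thus did not overlap in 3 of the 21, 3 lower and 0 higher, against 8.91% lower and 6.42% higher among all genes. Gprc5a did not pass once any single array was left out (adjusted p 0.0666 to 0.0988) and Rai14 only in that without lithium array 2 (0.0194). With the replicate number as a block none of the 67 genes passed (adjusted p 0.0682 for Gprc5a and 0.0965 for Rai14), against 0.346% lower among all genes. Of the 21 genes 8 were below the brightest bacterial probe set on every array, among them Hoxa2, Hoxb1 and Cdx1, which pattern the embryo (named after their values were seen).

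**Figure D4:**
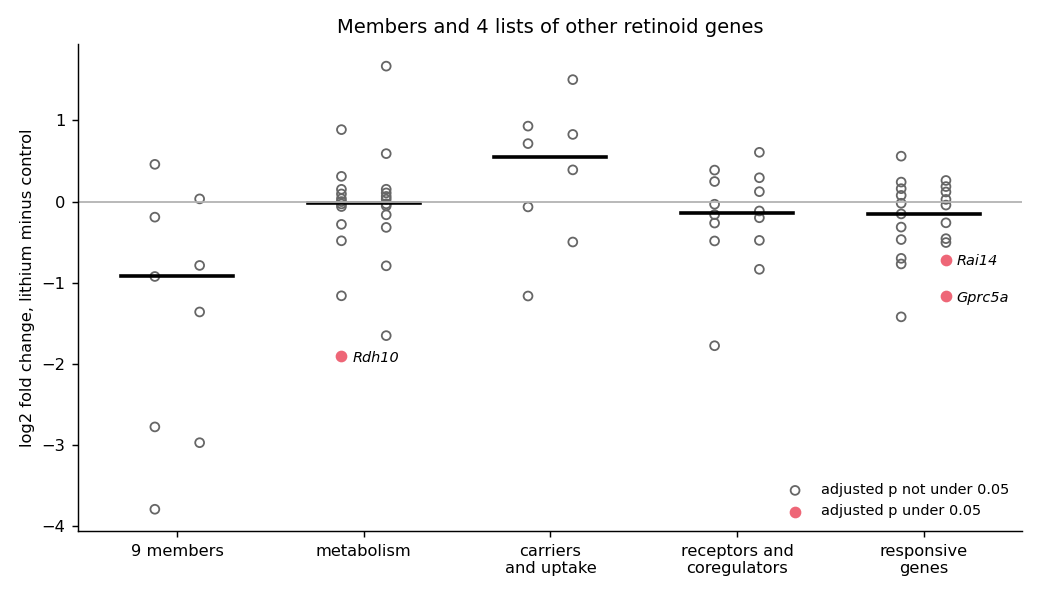
Log2 fold change, lithium minus control, of the 9 genes and of 4 lists of other retinoid genes, 1 point per gene; filled points passed an adjusted p of 0.05 from limma and bars are medians. Rdh10, Gprc5a and Rai14 are the filled points, and the medians run from -0.92 for the 9 genes to 0.55 for carriers and uptake.

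Markers of fibroblasts also had lower means in lithium. Crabp1 was lowest on lithium array 4, below background there. The 11 markers counted above were picked for being highest on that array, so no comparison of them with Crabp1 is drawn. Of 20 such markers 3 fell (Foxc1, Col3a1 and Lum), 0 rose and 17 did not pass, against 2.05% lower and 1.18% higher among all genes. Lower means were found in 19 of the 20 and in 9150 of all 18193 genes. At an unadjusted p under 0.05, limma placed 11 of the 20 lower and 0 higher, against 12.6% lower among all genes. In 10 of the 20 every lithium array lay below every control array, against 8.91% of all genes. The median log2 difference of the 20 came to -1.02 (-1.33 on arrays 1 and 2 alone, -0.52 on arrays 3 and 4 alone). One of them, Slc22a2, was below the brightest bacterial probe set on every array. Foxc1 passed whichever array was left out, Col3a1 in 1 of those 8 fits and Lum in 0, and a block for replicate number left none of the 3 past the threshold (adjusted p 0.0564, 0.0663 and 0.125). The summed signal of the 20 was 7751 to 9688 on the control arrays and 4712 to 6314 on the lithium arrays. Bright markers weigh most in it, and on lithium array 1 Ptgds alone made 2941 of 5772. The sum is thus no measure of fibroblast content on each array. Foxc1, a transcription factor needed for the meninges, read 163, 128, 152 and 131 in controls and 47.2, 43.7, 38.6 and 55.6 in lithium (a log2 difference of -1.64, adjusted p = 0.0108 from limma). Of the most abundant markers, Ptgds had a mean of 1706 ± 176 in controls and 1998 ± 640 in lithium, and Mgp one of 1419 ± 47.6 and 918 ± 244. The part of fibroblast content in the levels of the 9 genes was not tested. Markers of other cells had medians of -0.67 (pericytes and smooth muscle), -0.29 (endothelial cells), -0.26 (microglia and macrophages), -0.16 (astrocytes) and 0.03 (oligodendrocytes). Of 10 endothelial and 10 pericyte and smooth muscle markers, 1 each fell (Kdr and Pdgfrb), against 2.05% lower among all genes. Neither passed with the block (adjusted p 0.0989 and 0.0550 from limma), and each passed in 1 of the 8 fits that omitted an array. None passed in the other 3 of these lists. At an unadjusted p under 0.05, limma gave 2 of 12 astrocyte, 2 of 9 microglia and 0 of 9 oligodendrocyte markers, against 22% of all genes.

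Genes of pigment cells differed between the lithium arrays as well. Dct, an enzyme of melanin synthesis, read 10.5, 20.3, 10.1 and 6.20 in controls and 256, 96.4, 19.2 and 21.5 in lithium. Tyrp1, another enzyme of that pathway, was at 0.418 or below on every control array and at 65.0, 18.5, 1.84 and 1.03 in lithium. Among markers of the retinal pigment epithelium, Rpe65 was at 0.360 to 1.60 on all 8 arrays, within background, whereas Best1 was above background on every array, at 25.3 to 39.5 in controls and 30.4 to 34.1 in lithium. Over all 16 measured markers of retina and pigment epithelium the summed signal was 183 to 268 in controls and 335 to 602 in lithium. The 2 of highest mean signal were Rlbp1, which glia also express (131 in controls and 219 in lithium), and Dct (11.8 and 98.3). The sum is thus no measure of retina or pigment epithelium content. None of the 16 passed (1 at an unadjusted p under 0.05 in limma, against 22% of all genes). Stra6 was lowest on lithium array 1, where Dct and Tyrp1 were highest, and whether the 2 are related was not tested.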

How the data were processed

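RNA of each sample (4 control, 4 lithium) was run on its own Affymetrix GeneChip Mouse Genome array. The authors made the deposited intensities with the MAS5 algorithm in Agilent GeneSpring GX 12, on a linear scale with 1 value per probe set and array; after trimming 2% of values at either end, every array had a mean of 100. A baseline transformation that the methods name is not seen in the values, and detection calls were not used here. Of 45101 probe sets 64 Affymetrix controls were left out. Gene names came from the platform annotation, 932 probe sets with several symbols named no gene, and the Entrez identifiers of 9 of 9 genes matched RefSeq.

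Signals were floored at 1 (14.5% of values), put on the log2 scale and compared, lithium minus control, by the moderated linear model of limma (version 3.58.1, R 4.3.3; lmFit, eBayes), with Benjamini-Hochberg adjustment over 45037 probe sets. The 9 genes, the lists and the alternatives were chosen with earlier results of these data known. Genes named are the 9, and up to 3 that rose and 3 that fell in each retinoid list or else its 2 brightest. Also named are the 2 brightest of each marker list (here given for fibroblasts, astrocytes and oligodendrocytes), the 3 fibroblast markers of lowest adjusted p, and others where counts are spelled out or where stated. Dhrs3, Aldh8a1, Rbp7, Nr2f2, Rarres1, Cyp26a1, Foxd1, Sag, Best1, Tyrp1, Rpe65, Hoxa2, Hoxb1 and Cdx1 were chosen after their values were seen. Same-numbered arrays of the 2 groups deviated together (correlations of 0.130 to 0.197, limit 0.1), and arrays of other numbers reached 0.131. On the basis of the former, which no label supports, the replicate number was a block in an alternative fit only. The main fit, which gave the p-values unless stated otherwise, had no pairing. Nor does any label divide arrays 1 and 2 from arrays 3 and 4, a division used for values and as a covariate. Alternatives were quantile normalization, median centring, a signal of 200 required before testing, 16 added before log2, probe sets averaged per gene, no _x_at or _s_at probe sets, array weights, a variance prior with trend and robust fit, the replicate block, arrays 1 and 2 set against 3 and 4 as a covariate, and each array left out. On simulated data with 45037 probe sets, 49 of 50 rises and 48 of 50 falls of 3 on the log2 scale were recovered, and 38 of 50 rises and 41 of 50 falls of 1.5, with 13 wrong calls among 189. The shifted probe sets were drawn only from brighter ones, with mean log2 signals above those of Aldh1a3, Crabp1, Rbp4 and Rarb. The recovery is thus no detection rate for these genes, or for any single gene. Python 3.11.15 and matplotlib 3.10.9 made the figures.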

Additional observations from a re-analysis of the deposited data

Results flagged for a closer look

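In 4 of 22 groups of 4 arrays (11 probe sets in each of 2 groups), 1 array lay apart from the other 3, by its gap to the nearest array as a share of the group's range on the linear scale. Chance gives about 1 in 20 for normally distributed values, which these linear signals were not shown to be. All 4 flagged arrays were the highest of their group, and the log2 scale was not tried, so no excess over chance is drawn from the 4. The shares were 0.935 for Aldh1a3 on control array 4 (signal 234, next 26.7) and 0.837 for Crabp1 on the same array (158, next 49.5). They were 0.889 for Stra6 on control array 1 (213, next 150) and 0.970 for Cyp26b1 on lithium array 1 (189, next 115). The groups share arrays, so these cases are not independent.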

How the results depend on the processing

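The 9 genes gave 0 called in either direction in most alternatives, and 1 lower when a signal of 200 was required before the test (Aldh1a2), with a trended and robust variance (Aldh1a3, adjusted p = 0.0471 from limma) and with a term for arrays 1 and 2 against 3 and 4 (Aldh1a2). Leaving out 1 array gave 0 to 1 lower, the 1 being Aldh1a3 without control array 4. The signal of 200, as the mean of either group, left values for Aldh1a1 and Aldh1a2 only. Aldh1a2 met it through its control mean alone. With a fold of 2 and a signal of 200 added to the adjusted p, 0 of the 9 were called.

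Of the other 67 retinoid genes, 3 lower and 0 higher became 5 lower and 1 higher with log2 of the value plus 16, with a trended and robust variance and with the array term. The 5 were Rdh10, Gprc5a, Rai14, Dhrs3 and Nr2f2 each time, and the 1 was Rbp7, Rbp7 and Rlbp1. With the replicate block 0 were lower, and this block changed no call among the 9. Quantile normalization and median centring each gave 2 higher (Aldh8a1 and Rbp7), probe sets averaged per gene 3 (Lrp2, Ncoa1 and Rbp7) and array weights 1 (Aldh8a1). Leaving out 1 array gave 1 to 2 lower and 0 to 1 higher, and the 1 to 2 always held Rdh10. Rai14 did not pass with median centring (adjusted p = 0.130 from limma) or the mean of its probe sets (0.330).

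Directions near 0 reversed. Aldh1a1 ranged from -0.062 to 0.11 when 1 array was left out (below 0 without control array 2 or lithium array 4) and was -0.054 within arrays 3 and 4, Rarb was 0.030 and Stra6 0.060 within arrays 3 and 4, and Cyp26b1 was -0.029 within arrays 1 and 2. Of 173 values of the 9 genes under the alternatives, 6 changed direction and 4 passed the threshold that the reported value missed. Lithium signals of Aldh1a3 on its main probe set, and 1 of Crabp1, were below background.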
